A study of Mus musculus with 965 samples.

Results

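The genes described here are 10 genes of the cell's answer to low oxygen and of glycolysis: Bnip3, Ankrd37, Adm, Vegfa, Pgk1, Ldha, Aldoa, Slc2a1, Pdk1 and Egln3. They were taken by name from a table of 36849 genes in single cells of mouse embryoid bodies (EBs), the aggregates that embryonic stem cells form when leukemia inhibitory factor is withdrawn. They lie on chromosomes 2 (Pdk1), 4 (Slc2a1), 7 (Ldha, Adm, Aldoa and Bnip3), 8 (Ankrd37), 12 (Egln3), 17 (Vegfa) and X (Pgk1) of the mouse build GRCm38. All 10 were in the table and passed the filter on low counts that left 24083 genes for testing. The samples were 965 cells, with 363 from 3AKO EBs (homozygous Dnmt3a knockout, clones 3A2 and 3A38), 372 from 3BKO EBs (homozygous Dnmt3b knockout, clones 3B126 and 3B77) and 230 from WT EBs (wild type, 1 culture). They were taken at day 3 (365 cells), day 6 (348 cells) and day 8 (252 cells), and for 3A2 only days 3 and 6 were analysed here. All lines descend from E14 embryonic stem cells, and each knockout clone is 1 line, so that a genotype is represented by at most 2 clones.

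When oxygen is scarce, prolyl hydroxylases stop marking the alpha subunits of the hypoxia-inducible factors (HIFs) for destruction, and the HIFs then bind DNA at short elements with the core ACGTG or GCGTG. Their known targets include secreted factors (Vegfa, which drives vessel growth, and Adm, the vasodilating peptide adrenomedullin), mitochondrial regulators (Bnip3, a receptor for mitophagy, and Pdk1, a kinase that shuts off pyruvate dehydrogenase) and a feedback hydroxylase (Egln3). They also include glucose uptake (Slc2a1, the transporter GLUT1) and glycolytic enzymes (Aldoa, Pgk1 and Ldha), which many proliferating cells use at high rates with oxygen present. In EBs, oxygen reaches inner cells by diffusion, and vessel-forming and blood cells arise in the same aggregates.

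Raw reads were summed for each clone and day, which gave 14 libraries of 9810248 to 44529830 reads. Levels are CPM, the reads of a gene relative to all reads of its library, scaled by TMM factors, unless plain CPM is stated. Each library was 1 sorted plate, except WT at day 8 (plates C343 and C344). All 3AKO cells formed batch 1, 3B126 and WT batch 2, and 3B77 batch 3. In such sums, fewer cells of a type and less RNA per cell cannot be told apart. Dnmt3a was at 24.1 (3A2) and 12.99 (3A38) plain CPM in 3AKO libraries at day 3, against 118 in WT, and Dnmt3b at 17.8 and 35.3 in 3BKO libraries at day 3, against 239 in WT. At day 6 Dnmt3b was at 37.3 (3B126) and 13.4 (3B77) plain CPM, against 69.7 in WT. At day 8 Dnmt3b was as low in WT (4.24 and 5.50 in 3BKO libraries, against 4.22 in WT) and no longer checks the label. The library labelled 3B77 day 8 held 1279 reads of 4 Y-linked genes, against 0 reads in the 3B77 libraries of days 3 and 6. Conversely, plate C344 held 0 such reads, against 522 on plate C343. These 2 sets of cells, called the doubted libraries, go against their labels, and day 8 fold changes are also given without them. The WT library of day 3 held 10.06 plain CPM of the Y-linked genes (282 reads), against 89.2 in WT at day 6 and 94.9 on plate C343. The reason was not tested, and that library was kept under its label.

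Between days 3 and 6 most of the 10 genes were higher at the later day in every clone (Bnip3, Ankrd37, Adm, Vegfa, Pgk1, Ldha, Aldoa, Slc2a1 and Egln3, 9 of 10, against 5.34% of all genes tested). The 10 genes were chosen with earlier results of these data known, so that such shares describe them and are no test. Pdk1 was higher at day 6 only in 3A2. For Bnip3, Ankrd37, Adm, Pgk1 and Ldha, 5 of 10, every library of day 6 lay above every library of day 3, as for 1.48% of all genes. With plain library totals as the scale, Aldoa was lower at day 6 in 3A2 and the count of genes higher in every clone was 8 of 10 (6.63% of all genes). With each cell thinned to 50000 reads it was 7 of 10 (5.39%). At day 8 against day 3, Bnip3, Ankrd37, Adm, Vegfa, Pgk1 and Ldha, 6 of 10, were higher in every clone (9.08% of all genes), and all of these but Ldha, 5 of 10, had every day 8 library above every day 3 library (3.08%). Without the doubted libraries, on plain CPM, this was left for 3 of 10 (Ankrd37, Bnip3 and Vegfa), against 4.16% of all genes.

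**Figure D1:**
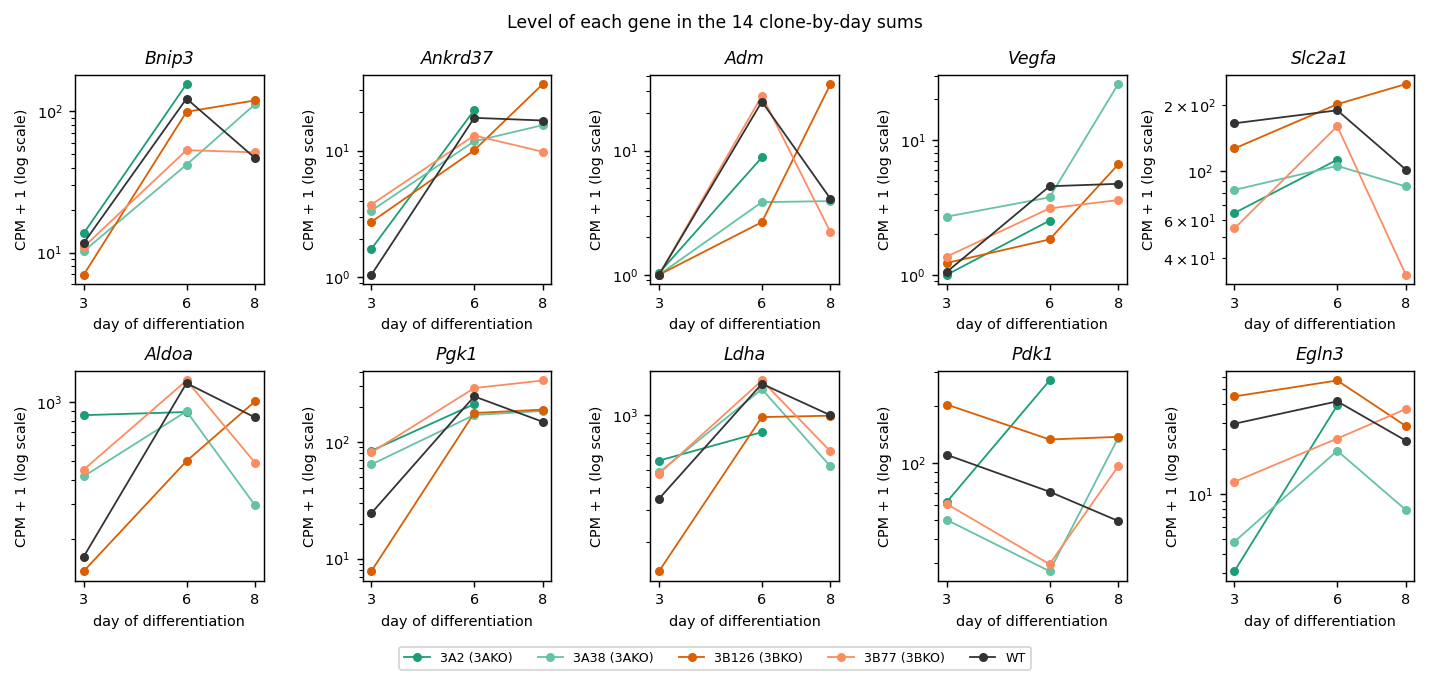
Level of each gene as CPM plus 1 on a log axis against the day of differentiation, with 1 point per library and a line per clone. Bnip3, Ankrd37, Adm, Pgk1 and Ldha had no overlap between day 6 and day 3. At day 8, Adm was highest in 3B126 (33.4 CPM) and Vegfa in 3A38 (25.0 CPM).

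Bnip3, whose product marks mitochondria for removal, differed between days 6 and 3 in every clone. At day 6 it was at 155 CPM in 3A2, 40.9 in 3A38, 98.4 in 3B126, 52.2 in 3B77 and 122 in WT. At day 3 it was at 12.7 CPM in 3A2, 9.22 in 3A38, 5.96 in 3B126, 9.95 in 3B77 and 10.7 in WT. Thus the lowest day 6 library was above the highest day 3 library, and the level averaged 93.8 ± 47.8 CPM at day 6 and 9.70 ± 2.46 CPM at day 3 (SD, n = 5 clones each). At day 8 it stayed between 45.7 CPM in WT and 119 CPM in 3B126. The log2 fold change was 3.31 ± 0.61 (SE) for day 6 against day 3 and 2.95 ± 0.60 for day 8 against day 3. The adjusted p-values from edgeR's quasi-likelihood test with Benjamini-Hochberg adjustment over all genes were 0.0711 and 0.0328, so that only the second passed the threshold of 0.05.

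Ankrd37, an ankyrin repeat protein and known HIF target, followed a similar course at lower levels. At day 6 it was at 19.8 CPM in 3A2, 10.8 in 3A38, 9.05 in 3B126, 12.1 in 3B77 and 17.1 in WT. At day 3 it was at 0.676 CPM in 3A2, 2.36 in 3A38, 1.74 in 3B126, 2.75 in 3B77 and 0.0499 in WT, where a single read was counted. All 5 day 6 libraries were above all 5 day 3 libraries. At day 8 Ankrd37 was at 14.9 CPM in 3A38, 32.4 in 3B126, 8.79 in 3B77 (a doubted library) and 16.2 in WT. Against day 3, its log2 fold change was 4.62 ± 0.89 (SE) at day 6 and 4.90 ± 0.92 at day 8, with edgeR adjusted p-values of 0.0896 and 0.0231.

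Adm, the gene of adrenomedullin, was almost absent at day 3, when 1 read was found among 365 cells. At day 6 it was at 7.83 CPM in 3A2, 2.85 in 3A38, 1.66 in 3B126, 26.7 in 3B77 and 23.9 in WT. At day 8 it was at 2.93 CPM in 3A38, 33.4 in 3B126, 1.21 in 3B77 (a doubted library) and 3.09 in WT. Pooled over clones, Adm was 1523-fold higher at day 6 than at day 3 (95% exact Poisson interval of the day 3 count, 273 to 60171) and 1194-fold higher at day 8 (214 to 47176), intervals that cover counting error only. Of the 1667 reads of day 6, 797 came from 3B77, without which the ratio was 998, and of the 780 reads of day 8, 592 came from 3B126, without which it was 361. The edgeR adjusted p was 0.0711 for day 6 and 0.0300 for day 8, both against day 3. Without the doubted libraries no usable estimate was had for Adm at day 8, since WT then held 0 Adm reads at both days (0 in the 21 cells of plate C343).

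These 3 genes were the only ones of the 10 that edgeR called in any contrast, all of them higher at day 8 than at day 3, where 0.669% of all genes were called as higher. At day 6 against day 3 none was called, and the share among all genes was 0.0374%. Unadjusted p-values under 0.05 were found for 8 of the 10 genes at day 6 against day 3, and for 11.6% of all genes. A fit with the clone as a replicate block, since the days of a clone are the same cell line, called Bnip3 (adjusted p = 0.0286) and Adm (0.0485) at day 6 against day 3. At day 8 against day 3 it called 4 genes, the fourth being Pgk1 (0.0459), and DESeq2 called 7 at day 6 and 5 at day 8. Over all 24083 genes tested, the block called 60 higher and 7 lower at day 6, and 302 and 92 at day 8. DESeq2 called 902 higher and 526 lower of all genes at day 6, and 1619 and 1117 at day 8. Without the doubted libraries 1 library per genotype was left at day 8. The spread then came from the other days, so that only log2 fold changes are given. At day 8 against day 3 they were 3.29 for Bnip3, 5.23 for Ankrd37, 4.94 for Vegfa and 1.73 for Pgk1, with a median of -0.59 over all genes. Adm could not be estimated. Leaving out the 3A38 library of day 8 left 0 calls among the 10 genes and 1 among all 23537 genes tested. Leaving out clone 3B126 left 1 among the 10, with 247 higher and 100 lower among 23174. For day 8 against day 6, edgeR called none of the 10 genes and 0% of all genes, with 1347 genes at an unadjusted p under 0.05 and 200 higher and 130 lower genes called by DESeq2.

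To show where the letters of the HIF core lie near their starts, the upstream sequences of these 3 genes are given. They run 5′ to 3′ on the strand of the gene, from 250 to 21 bases before the RefSeq start (build GRCm38.p6). Binding of HIFs to these stretches was not tested. Capitals mark each ACGTG or GCGTG and its reverse complement, CACGT or CACGC. Bnip3 lies at chr7:138909527-138909756 on the minus strand, Ankrd37 at chr8:45999871-46000100 on the minus strand and Adm at chr7:110627407-110627636 on the plus strand, and no annotated exon overlaps them.
Bnip3: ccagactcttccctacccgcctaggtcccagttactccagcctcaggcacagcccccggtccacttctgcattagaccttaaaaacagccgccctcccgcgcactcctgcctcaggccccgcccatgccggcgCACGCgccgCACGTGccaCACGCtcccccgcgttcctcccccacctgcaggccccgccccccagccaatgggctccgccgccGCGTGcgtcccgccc
Ankrd37: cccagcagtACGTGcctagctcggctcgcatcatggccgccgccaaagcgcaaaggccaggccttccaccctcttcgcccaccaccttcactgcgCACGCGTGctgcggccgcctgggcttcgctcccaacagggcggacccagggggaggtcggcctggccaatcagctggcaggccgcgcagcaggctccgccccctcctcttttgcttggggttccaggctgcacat
Adm: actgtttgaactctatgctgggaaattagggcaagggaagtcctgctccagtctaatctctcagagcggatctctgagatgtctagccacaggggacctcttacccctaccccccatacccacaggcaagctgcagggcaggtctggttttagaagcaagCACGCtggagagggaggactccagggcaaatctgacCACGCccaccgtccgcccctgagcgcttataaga

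These stretches held 5 matches in Bnip3, 3 in Ankrd37 and 2 in Adm, where overlapping matches were counted one by one. In Bnip3 the palindrome CACGTG, which is also the E-box bound by other factors, gave 2 of the 5. Over the full 250 bases before each start, all 10 genes held at least 1 match at 1 or more of their RefSeq starts, as did 41.5% of 27025 genes. Ldha held 5 at its first start and Ankrd37 4, and 6.58% of 32851 windows held 3 or more. Vegfa held 0 at its first start, Pdk1 1, Egln3 1 and Pgk1 2. A match says only that these letters are present.

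Vegfa, which encodes a growth factor for endothelium, stood at day 3 at 0 CPM in 3A2, 1.70 in 3A38, 0.225 in 3B126, 0.365 in 3B77 and 0.0499 in WT. At day 6 it was between 0.830 CPM in 3B126 and 3.54 CPM in WT. At day 8 it reached 25.0 CPM in 3A38, against 2.58 to 5.59 CPM in the other 3 libraries. The log2 fold change at day 6 against day 3 was 3.21 ± 1.28 (SE) and at day 8 against day 3 4.91 ± 1.45, with edgeR adjusted p-values of 0.358 and 0.108. The 2.75 CPM of 3A38 at day 6 rested on 115 reads, and the 1.52 CPM of 3A2 on 43.

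The glycolytic enzymes were present in nearly every cell at day 6. Pgk1, which makes ATP from bisphosphoglycerate, was at 210.2 CPM in 3A2, 169.6 in 3A38, 176 in 3B126, 289 in 3B77 and 245 in WT at day 6. At day 3 it was at 83.1 CPM in 3A2, 63.2 in 3A38, 6.80 in 3B126, 80.4 in 3B77 and 23.5 in WT. Every clone was higher at day 6, without overlap, but the fold ranged widely, with 2.53-fold in 3A2 and 25.9-fold in 3B126. At day 8 Pgk1 was at 148 to 336 CPM. The log2 fold change was 2.39 ± 0.63 (SE, edgeR adjusted p = 0.172) for day 6 against day 3 and 2.19 ± 0.64 (adjusted p = 0.105) for day 8 against day 3.

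Ldha, the lactate dehydrogenase subunit that turns pyruvate into lactate, was at 804 CPM in 3A2, 1389.6 in 3A38, 973 in 3B126, 1550.3 in 3B77 and 1486 in WT at day 6. At day 3 it was at 559.8 CPM in 3A2, 482 in 3A38, 137 in 3B126, 474 in 3B77 and 345 in WT, all below the day 6 range. Its log2 fold change was 1.74 ± 0.50 (SE, edgeR adjusted p = 0.218). At day 8 it was between 519.9 CPM in 3A38 and 996 CPM in WT, below the same clone's day 6 level in 3 of 4 clones. Aldoa, the aldolase that splits fructose bisphosphate, averaged 962 ± 321 CPM at day 6 and 403 ± 290.1 CPM at day 3 (SD, n = 5 clones each). In 3A2 it hardly differed, with 887 CPM at day 6 against 854 CPM at day 3, whereas WT had 1246 CPM against 161 CPM. The edgeR adjusted p for Aldoa was 0.259. Its day 8 level was 294 CPM in 3A38, 1007 in 3B126, 487 in 3B77 (a doubted library) and 832 in WT. The WT level of day 8 came mostly from plate C344, with 1417 plain CPM of Aldoa and 1661 of Ldha, against 285 and 419 on plate C343. Multi-mapped reads were excluded from the deposited counts and Pgk1, Ldha and Aldoa have processed copies in the genome, so that their levels may be understated. A pair of gene records share the symbol Aldoa, and the table gives them as 1 gene.

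Slc2a1, the glucose transporter GLUT1, moved less. It was at 112 CPM in 3A2, 105 in 3A38, 202 in 3B126, 159.8 in 3B77 and 189 in WT at day 6, against 63.5 CPM in 3A2, 81.2 in 3A38, 126.1 in 3B126, 53.8 in 3B77 and 165 in WT at day 3, and these ranges overlapped. The log2 fold change was 0.60 ± 0.55 (SE, edgeR adjusted p = 0.813). At day 8 it was at 249 CPM in 3B126 and at 32.6 CPM in 3B77, a doubted library.

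Pdk1, the pyruvate dehydrogenase kinase, went apart from the others. At day 6 it was at 270.5 CPM in 3A2 but at 26.1 CPM in 3A38, 132 in 3B126, 28.5 in 3B77 and 69.8 in WT. At day 3 it was at 61.5 CPM in 3A2, 49.4 in 3A38, 202 in 3B126, 60.01 in 3B77 and 109.6 in WT. The level was thus lower at day 6 in 4 of 5 clones and 4.40-fold higher in 3A2, and the log2 fold change was 0.02 ± 0.65 (SE, edgeR adjusted p = 1.00). Its day 8 level was between 48.7 CPM in WT and 136 CPM in 3B126. Over the 14 libraries Pdk1 ran against Ldha (Pearson r = -0.48 on log2(CPM + 5)) and Aldoa (r = -0.44).

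Egln3, the prolyl hydroxylase PHD3, was at 38.1 CPM in 3A2, 18.4 in 3A38, 56.2 in 3B126, 22.5 in 3B77 and 40.5 in WT at day 6. At day 3 it was at 2.06 CPM in 3A2, 3.81 in 3A38, 43.8 in 3B126, 11.1 in 3B77 and 28.4 in WT. It was higher at day 6 in every clone, but 18.4-fold in 3A2 and only 1.28-fold in 3B126, and the day ranges overlapped. The edgeR adjusted p was 0.382 for a log2 fold change of 1.43 ± 0.60 (SE). At day 8 Egln3 was at 6.85 CPM in 3A38, 27.4 in 3B126, 35.9 in 3B77 (a doubted library) and 21.7 in WT, a range within that of day 3.

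**Figure D2:**
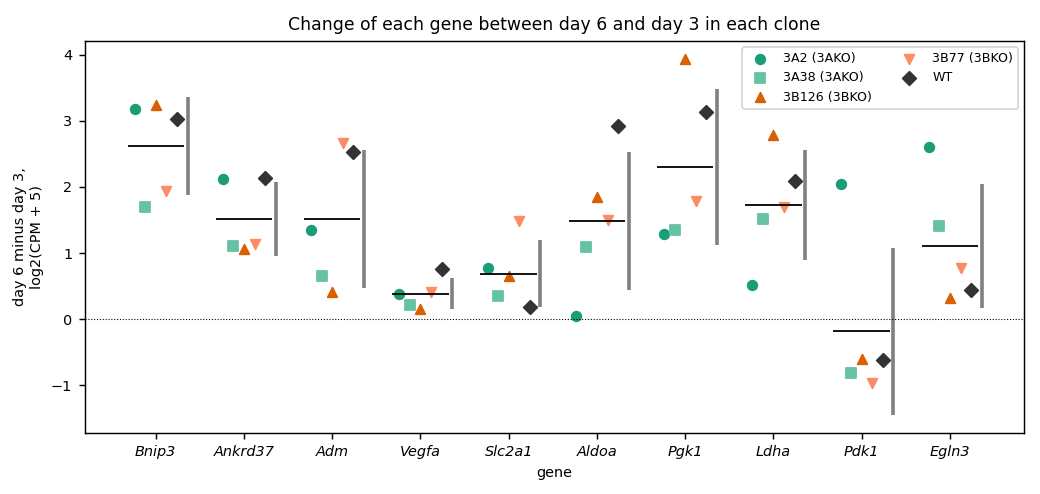
Difference of log2(CPM + 5) between day 6 and day 3 for each gene, 1 symbol per clone, with the mean (black line) and 1 SD either side of it (grey bar, n = 5 clones). Bnip3 lies between 1.69 and 3.24 in all clones, and Pdk1 is below 0 in 4 of 5.

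For 6 of the 10 genes, the levels at day 3 separated batch 2 from the other batches. Both batch 2 libraries of day 3 (3B126 and WT) lay below the other 3 for Pgk1, Ldha and Aldoa and above them for Slc2a1, Pdk1 and Egln3. Aldoa, for instance, was at 135 and 161 CPM in 3B126 and WT, against 415 to 854 CPM in batches 1 and 3. Such splits were frequent in all genes, 22.5% of which were below and 15.2% above, and 3 of 10 in each direction is near that share. At day 6 the split was left for 2 of the 10 genes, both above. Median detected genes per cell were 3713 in 3B126 and 5096 in WT at day 3, against 6907 to 6946 in the other 3 libraries of that day; their part in these values was not tested. The counts of genes higher in every clone set each clone against its own earlier day within 1 batch, whereas the fold changes and p-values above come from means over clones with no batch term.

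The genotype comparisons gave no edgeR call for any of the 10 genes, and 1 by DESeq2 (Egln3). The edgeR test called 0% of all genes for 3BKO against WT and for 3AKO against WT at days 3, 6 and 8, for 3BKO against 3AKO at day 6, and for the difference between 3BKO and 3AKO in the change from day 3 to day 6. The day 8 contrasts include the doubted libraries, without which 1 library per genotype was left at day 8. Calls without them are therefore not given. For 3AKO against WT at day 8 there was 1 library on each side in the full data as well. With all libraries, there were at an unadjusted p under 0.05 between 341 and 1835 genes in these contrasts, and DESeq2 called at most 479 higher and 232 lower genes, in 3AKO against WT at day 3. The lowest unadjusted p of the 10 genes was that of Egln3 in the same contrast, with 2.06 and 3.81 CPM in the 3AKO clones against 28.4 CPM in WT (log2 fold change -3.27 ± 1.04 SE, unadjusted p = 0.00638, adjusted p = 0.506 by edgeR and 0.0490 by DESeq2). There 3AKO is batch 1 and WT batch 2, and batch and genotype cannot be told apart. In the same batch as WT, 3B126 had 43.8 CPM. For Bnip3 at day 6 the log2 fold change was -0.70 ± 0.94 (SE) for 3BKO against WT and -0.32 ± 0.95 for 3AKO against WT (edgeR adjusted p = 1.00 for both). Within batch 2, 3B126 and WT at day 6 had 98.4 and 122 CPM of Bnip3, 176 and 245 of Pgk1, 973 and 1486 of Ldha, and 1.66 and 23.9 of Adm.

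Next, the share of cells in which a gene was seen was compared after each cell had been thinned to 50000 reads. Bnip3 was found in 76.2% of 3A2 cells at day 6 (95% exact binomial interval 65.4 to 85.1), against 20.3% at day 3 (11.6 to 31.7), and in 71.6% of WT cells (59.3 to 81.99), against 14.9% (7.66 to 25.0). The intervals did not overlap in 4 of 5 clones, and in 3A38 they overlapped, with 45.8% (34.02 to 57.996) against 27.1% (17.2 to 39.1). Ankrd37 was found in 22.5% to 41.2% of cells at day 6, against 0% to 11.4% at day 3. Pgk1 was seen in 17.8% of 3B126 cells and 37.8% of WT cells at day 3, and in 93.8% or more of the cells of every clone at day 6. Pdk1 was found in fewer cells at day 6 in 3A38, 3B126 and 3B77, with 39.4% of 3B77 cells against 70.9% at day 3. Without thinning, Bnip3 was seen in 63.9% to 86.2% of cells at day 6 and 9.59% to 62.03% at day 3. PCR copies cannot be separated in these reads, and the intervals cover counting error only.

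**Figure D3:**
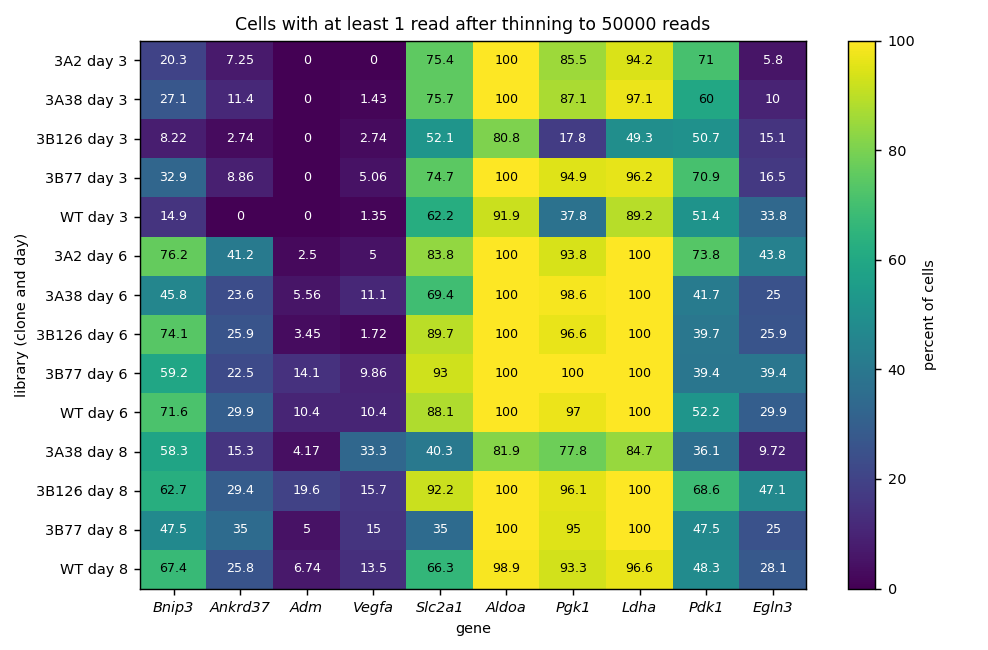
Percent of cells with at least 1 read of each gene (columns) in each library (rows, by day and then clone) after thinning to 50000 reads per cell. Adm is at 0 in all day 3 libraries and at most 19.6% later, and Aldoa reaches 100% in all day 6 libraries.

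Adm stood out by its few cells. It had reads in 57 of 965 cells, and the 10 cells with the most held 69.6% of its 2448 reads. In the day 6 libraries the 10% of cells with the most reads of the gene held 97.2% or more of Adm reads, against 25.1% to 44.01% for Ldha. Adm had a read in only 2 to 10 cells of each of these libraries, so that its share follows largely from how few cells had the gene. A mean level of Adm per library therefore describes a small number of cells.

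To see in which cells the genes were expressed, the cells were clustered with the 10 genes and their pathway lists left out of the clustering genes. Of 11 clusters, 3 were epiblast-like (clusters 0, 1 and 2, with 5, 5 and 7 of 11 epiblast markers), and the others included neural progenitor-like, mesenchyme-like, primitive streak-like, primitive blood-like, neuron-like and endothelium-like cells. Clusters 4 and 6 were left unnamed. Bnip3 was at 57.6, 16.1 and 17.5 plain CPM in the epiblast-like clusters, and at 42.01 to 125 in all others. Adm was at 33.3 plain CPM in cluster 4, 17.5 in neural progenitor-like and 18.1 in primitive streak-like cells, and at 3.73 or less in the remaining 8. These are values pooled over libraries, and single libraries differed. Neural progenitor-like cells had 94.3 plain CPM of Adm in 3B77 at day 6, but 0.121 in 3A38 at day 6 and 0 in 3A38 at day 8. Primitive streak-like cells had 29.1 in 3A2 at day 6 and 0 in 3A38 at day 6. Vegfa was at 27.2 plain CPM in neuron-like cells, with 32.2 in the 19 of these 37 cells that came from 3A38 at day 8, where neural progenitor-like cells had 21.8 and mesenchyme-like cells 17.1, and at 5.22 in endothelium-like cells. Egln3, Ldha and Aldoa were each highest in primitive blood-like cells (78.6, 2115 and 1390.0 plain CPM). Both libraries with at least 8 such cells, 3A38 day 6 and the one labelled 3B77 day 8, also had these 3 genes highest there among the clusters with at least 8 cells. Ankrd37 was at 32.9 plain CPM in endothelium-like cells, but at 68.2 in 8 of them from WT at day 8 and 5.24 in 8 from 3A38 at day 6. Clusters differ in the libraries and days they hold, and no test was made between them.

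**Figure D4:**
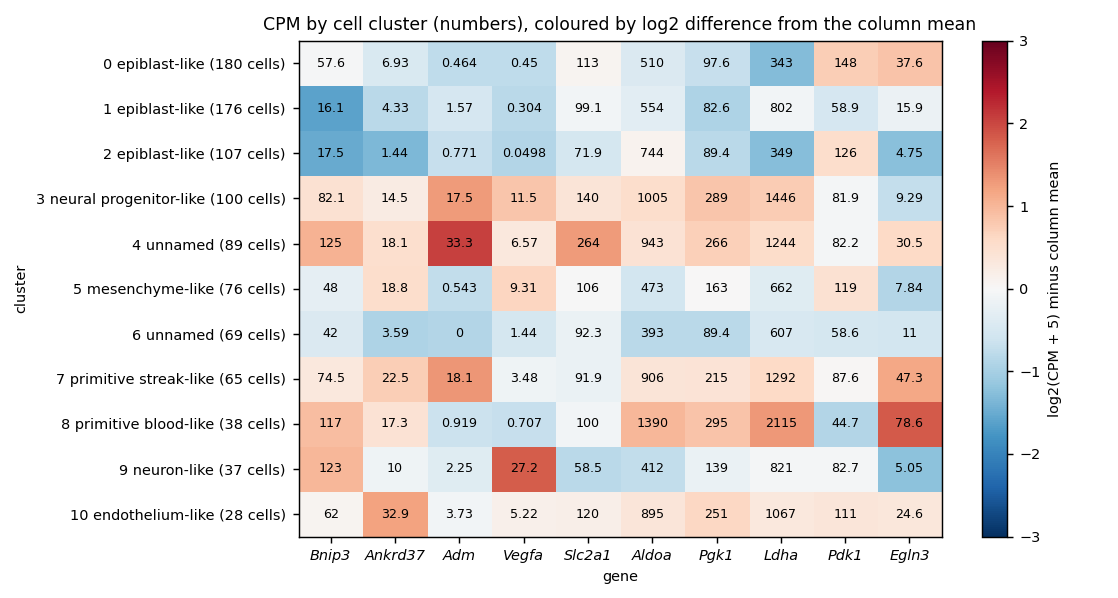
Plain CPM of each gene (columns) in each cell cluster (rows), coloured by log2(CPM + 5) minus the mean of the column. Pooled over libraries, Adm is high in clusters 4, 7 and 3, Vegfa in the neuron-like cluster 9 and Egln3 in the primitive blood-like cluster 8.

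The makeup of the libraries changed between the days as well. Epiblast markers summed to 96.1 to 3202 CPM at day 6 and 1778 to 3932 CPM at day 3, and 0 of 11 had a positive log2 fold change (median -2.53, against 0.11 over all genes). None of the 11 passed the test. Mesenchyme markers summed to 16.4 to 333 CPM at day 6 and 0.787 to 4.21 CPM at day 3 (9 of 10 positive, 1 called), and primitive blood markers to 0.603 to 14981 CPM at day 6 and 1.12 to 3.99 CPM at day 3 (10 of 10 positive, none called). The clone with the highest epiblast marker sum at day 6, 3A2 (3202 CPM), also had the highest Bnip3 of that day. Its epiblast sum was 3381 CPM at day 3. The part of cell makeup in the values of the 10 genes was not tested with these sums.

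Epiblast-like cells alone were then compared between the days, in the 4 clones with at least 8 such cells at both. Bnip3 was at 103 plain CPM in 60 cells of 3A2 at day 6, against 14.03 in 67 cells at day 3. It was at 39.8 in 14 cells of 3B126, against 3.60 in 68 cells. In 3B77 it was at 48.3 in 11 cells, against 12.3 in 73 cells, and in WT at 103 in 13 cells, against 7.63 in 74 cells. Bnip3, Ankrd37, Pgk1 and Slc2a1 were thus higher at day 6 in 4 of 4 clones within this class. Ldha and Aldoa were higher in 3 of 4 (lower in 3A2), and Vegfa, Pdk1, Egln3 and Adm in 2 of 4. The share of all genes higher in every clone within this class was not computed, so that these counts describe and do not test. Adm was at 0 in the day 6 epiblast-like cells of 3B126 and 3B77 and at 0.551 and 2.94 plain CPM in those of 3A2 and WT. In the other cells of the same day it was at 1.75 plain CPM in 3B126, 44.1 in 3B77, 23.03 in 3A2 and 28.5 in WT.

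Different clusters held the class on different days. In 3A2 all 60 cells of day 6 were in cluster 0 and most of day 3 in cluster 2 (44 cells). Zfp42, a naive pluripotency marker in the study, was among the leading genes of cluster 0. Fgf5 and Lefty1, primed markers in the study, were among those of cluster 1. The class may thus hold different pluripotent states, and their part in these values was not tested. Within cluster 1 alone, Bnip3 was at 18.7 plain CPM in 8 cells of 3B126 at day 6, against 2.65 in 17 cells at day 3. In WT it was at 82.9 plain CPM in 10 cells of that cluster at day 6, against 10.3 in 43 cells at day 3. In 3B77 the share of epiblast-like cells with a Bnip3 read after thinning went the other way, with 27.3% of 11 cells at day 6 against 32.9% of 73 cells at day 3. The name of the batch 2 cells of day 3 depended on integration over batches. Without it, 4 cells of 3B126 and 1 of WT at day 3 were epiblast-like, and 69 and 73 were not.

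**Figure D5:**
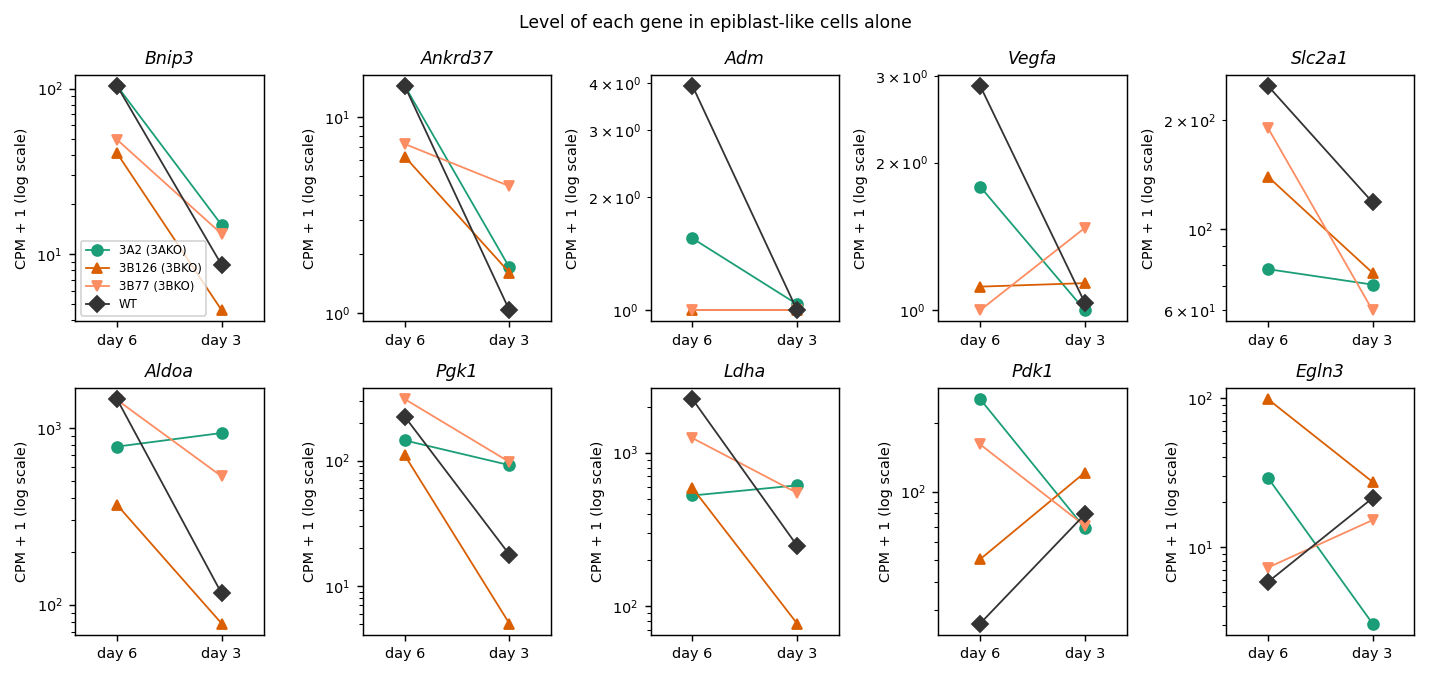
Plain CPM plus 1 (log axis) of each gene in the summed epiblast-like cells of each clone at day 6 (left) and day 3 (right), 1 line per clone. Bnip3, Ankrd37, Pgk1 and Slc2a1 are higher at day 6 in all 4 clones, and Pdk1 and Egln3 go both ways. The share of all genes higher in all 4 clones was not computed.

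The wider pathway was examined with gene lists, also chosen with earlier results of these data known, so that their counts describe and do not test. Of 26 other hypoxia targets, 21 had a positive log2 fold change at day 6 against day 3 and 19 at day 8 against day 3 (medians 1.02 and 1.43, against 0.11 and -0.01 over all genes). The sum of the list was higher at day 6 than at day 3 in 3A2, 3A38 and 3B77. It was lower in the batch 2 clones, 3B126 (1683 against 2882 CPM) and WT (1894 against 3717 CPM). The mean of log2(CPM + 5) over the list, in which abundant genes weigh less, was higher at day 6 in every clone. It was 4.48 against 4.02 in 3B126 and 4.66 against 4.11 in WT. None of the 26 genes was called at day 6, and 2 rose at day 8 by the edgeR test. Bnip3l, a mitophagy receptor related to Bnip3, averaged 39.9 ± 18.4 CPM at day 3 (n = 5 clones), 164 ± 48.7 at day 6 (n = 5) and 207 ± 57.2 at day 8 (SD, n = 4), with an adjusted p of 0.0278 for day 8 against day 3. P4ha1, a collagen prolyl hydroxylase, averaged 8.63 ± 5.18, 38.9 ± 8.26 and 90.3 ± 84.9 CPM on the same days (adjusted p = 0.0454 by edgeR for day 8 against day 3).

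Of 10 genes of oxygen sensing, 1 was called as higher at day 8 against day 3, where 0.669% of all genes were. It was Egln1, the main HIF prolyl hydroxylase. It averaged 3.78 ± 1.69 CPM at day 3, 21.4 ± 8.53 at day 6 and 39.8 ± 9.42 at day 8 (SD, n = 5, 5 and 4 clones), with an edgeR adjusted p of 0.0300 for day 8 against day 3. The list as a whole had 7 of 10 positive at day 6 against day 3 (median 0.31), against 53.02% of all genes. Hif1a itself, the oxygen-regulated HIF subunit, averaged 127 ± 70.4 CPM at day 6 and 124 ± 53.95 CPM at day 3 (SD, n = 5 clones each), and its RNA level differed by less than the spread between clones.

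Of 23 other glycolysis genes, 18 were positive at day 6 against day 3 and 16 at day 8 against day 3 (medians 1.15 and 0.37), and 1 was called. Pfkfb3, which makes the allosteric activator of phosphofructokinase, averaged 3.68 ± 3.81 CPM at day 3, 13.3 ± 6.43 at day 6 and 40.3 ± 13.9 at day 8 (SD, n = 5, 5 and 4 clones), with an edgeR adjusted p of 0.0300 for day 8 against day 3. The calls of Bnip3l, P4ha1, Egln1 and Pfkfb3 were lost without the 3A38 library of day 8 (adjusted p of 0.169 to 0.184). Bnip3l, P4ha1 and Pfkfb3 were also lost without WT (0.0649 to 0.0809), and Bnip3l, Egln1 and Pfkfb3 without clone 3A38 (0.0522 to 0.0783), all by edgeR. Without the doubted libraries the log2 fold change of P4ha1 at day 8 against day 3 was 2.28, against 3.14 with all libraries.

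Genes of pyruvate entry and respiration were split evenly, with 10 of 20 positive at day 6 against day 3 (median -0.13) and none called. At day 3 they summed to 48368 CPM in 3B126 and 35569 in WT, against 5028 to 6576 CPM in batches 1 and 3. This difference in the sums was not shared by the list as a whole. Both batch 2 libraries of day 3 lay above the others for 6 of the 20 genes and below them for 8. The mean of log2(CPM + 5) over the list, in which abundant genes weigh less, was lowest in 3B126 (6.67) and highest in WT. It was 6.83 to 6.96 in batches 1 and 3. The 2 largest positive values of this list were those of Pdp1, a phosphatase that activates pyruvate dehydrogenase (2.40 on the log2 scale, adjusted p = 0.472), and Pdhb, a subunit of that enzyme (1.02, adjusted p = 0.545). The 2 most negative were those of Ndufa4, a respiratory chain subunit (-2.26, adjusted p = 0.262), and Pdk4, a relative of Pdk1 (-2.12, adjusted p = 0.806, all by edgeR). Of 10 stress response genes 8 were positive (median 0.67) and none was called. Atf3 and Ddit3, stress-induced transcription factors, had log2 values of 4.12 (adjusted p = 0.161) and 1.96 (adjusted p = 0.311), and Sesn2 and Atf4 of -0.77 (adjusted p = 0.850) and -0.56 (adjusted p = 0.788).

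Finally, the likeness among the genes was described over the 14 libraries, which share depth, batch and cell makeup, so that no p is given. Of 45 pairs, 18 had Pearson r over 0.5 on log2(CPM + 5), and the median was 0.37. The closest pairs were Bnip3 with Ankrd37 (r = 0.91), Ldha with Aldoa (0.89) and Pgk1 with Ldha (0.86). Among cells of 1 library the medians over the 14 libraries were 0.23, 0.64 and 0.51 for these 3 pairs. The Bnip3 and Ankrd37 pair was thus close between libraries and loose between cells, where many cells had no read of Ankrd37. The genes outside all lists whose levels ran most like the mean of the 10 genes, among 5290 genes with at least 20 CPM, were Prelid2 (r = 0.86), Prxl2a (0.84), Fam181b (0.83), Rnf19a (0.81), Tmed10 (0.81), Zmiz1 (0.80), Tmem60 (0.80), Zfp606 (0.80), Chn1 (0.79) and Hook3 (0.79). Prelid2, for example, averaged 13.9 ± 3.87 CPM at day 3, 67.7 ± 25.2 at day 6 and 69.3 ± 24.7 at day 8 (SD, n = 5, 5 and 4 clones).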

How the data were processed

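Single cells of EBs were sorted into wells and amplified with a modified Smart-seq2 protocol without molecular identifiers. Per the labels and the study's methods, the deposited raw read counts per gene and cell were made by the authors with FastQC 0.11.2, Trim Galore 0.5.0, STAR 2.7.1a (mm10/GRCm38) and featureCounts 1.6.1, with exons summed by gene name and multi-mapped reads excluded. The strand setting was not stated. Cells held 50096 to 3442378 reads (median 255315), after the authors' filters on reads, genes and mitochondrial share.

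Counts were summed per clone and day, since the clone is the replicate. The p-values measure the spread between clones. WT, with 1 culture, and 3AKO at day 8, with 1 library, were assumed to vary likewise. Genes were filtered with filterByExpr and tested with edgeR 4.0.16 in R 4.3.3 (TMM, robust quasi-likelihood, genotype-by-day means, 11 contrasts, 5 residual degrees of freedom, threshold 0.05 after Benjamini-Hochberg adjustment). Day contrasts averaged the genotypes. Cells were clustered with Seurat 5.3.0 (2000 variable genes, integration over batches, 8 components, resolution 0.8). A cluster was named for the list with the most markers over 2-fold and in at least 25% of its cells, at least 3 of them, unless predicted genes led it. This rule was set after the clusters were seen, and a class may differ from the study's. Doublets were not called. The pipeline was tested on simulated data. Alternatives were other scalings, no filter, DESeq2 1.42.0, a clone block, left-out clones and libraries, and thinned cells.

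The 10 genes and all lists were chosen with earlier results of these data known. Named genes were the 10 members, genes of each list past the test (at most 5), or otherwise its 2 largest and 2 smallest log2 fold changes at day 6 against day 3, and the 10 most alike genes. Hif1a and the other markers were named after their values were seen. The days of a clone pair as the same cell line (correlation of their deviations, 0.10 to 0.12 between days 3 and 6, and -0.0026 between days 6 and 8 of the 3BKO clones). Both clones of a genotype give the same value. The value for days 6 and 8 used the library labelled 3B77 day 8, a doubted library, and so says little on pairing. Gene windows came from RefSeq on GRCm38.p6, where all 10 genes were matched. The suffix NPM on the titles of 8 day 8 cells is unexplained; those cells were kept.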

Additional observations from a re-analysis of the deposited data

Results flagged for a closer look

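A total of 4 values of the 10 genes stood apart from the other clones of the same day by Dixon's criterion, out of 30 groups of 4 or 5 clones tested. The usual rate of about 1 flag in 20 by chance is for normally distributed values and need not hold for CPM near 0. Adm in 3B126 at day 8 was at 33.4 CPM, against 1.21 to 3.09 CPM in the other 3 libraries of that day. Vegfa in 3A38 at day 8 was at 25.0 CPM, against 2.58 to 5.59 CPM in the others, and neuron markers summed to 5479 CPM in that library, against 9.04 to 805 CPM. Vegfa in 3A38 at day 3 was at 1.70 CPM, against 0 to 0.365 CPM. Adm in 3A2 at day 3 was at 0.0338 CPM, which is 1 read, against 0 in the other 4.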

How the results depend on the processing

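Of 1390 gene values under the alternatives, 0 had a called change turn direction, 44 gained the call and 8 lost it. Of the genes at day 6 against day 3, where none was called, 3 were called with library totals only, 5 without a filter, 7 with DESeq2, 2 with the replicate block (clone), 3 without the doubted libraries, and 2 with each cell thinned. Leaving out 1 clone gave 0 to 5. At day 8 against day 3, where 3 were called, 5 were called without a filter, 5 with DESeq2, 5 with each cell thinned and 0 without the 3A38 library of day 8, and leaving out 1 clone gave 1 to 4. For 3AKO against WT at day 3, DESeq2 called 1 (Egln3). The cause was not tested in any of these. Of the genes with every day 8 library above every day 3 library, 3 of 5 were left without the doubted libraries, on plain CPM, an alternative chosen after the data were seen, as were the Adm ratios without 1 library. Over all genes, calls at day 6 against day 3 (9 higher, 0 lower) became 902 and 526 with DESeq2, 544 and 264 without a filter, 104 and 15 with library totals, and 60 and 7 with the block. Those at day 8 against day 3 (161 and 37) became 1619 and 1117, 1030 and 525, 380 and 77, and 302 and 92 in the same order. With each cell thinned, 24 higher and 2 lower genes were called at day 6 and 399 and 156 at day 8, both against day 3. Library totals put the median log2 fold change of all genes at day 6 against day 3 at 0.38, against 0.11. Without integration, only 1 clone (3A2) had at least 8 epiblast-like cells at both days. With cluster resolution 0.4, Vegfa was higher at day 6 in 4 of 4 clones of that class and Adm in 3 of 4. With 5 reads required in place of 1 after thinning, the share of all cells with Bnip3 was 20.3%. At this depth, genes near 1 CPM such as Vegfa rest on few reads.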
